A study of Mus musculus with 12 samples.

Results

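The genes of the proteasome were compared between the lungs of cigarette smoke-exposed and control mice at 4 and 6 months of age. They were chosen by symbol, as the genes that start with Psma, Psmb, Psmc, Psmd, Psme, Psmf or Psmg. A RefSeq table held 51 such coding genes, 45 of them had a named probe on the array, and 43 had a probe that was detected on 3 or more of the 12 arrays (detection p below 0.05). These 43 stood among 10541 named genes with a detected probe. Psma1 and Psma6 had a probe that no array detected, and Psma8, Psmb11, Psmd3, Psmf1, Psmg4 and Psme2b were not analysed here. Of the 43 genes, 42 were detected on all 12 arrays, and Psmc6 was detected on 6.

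Whole lung RNA of female C57BL/6N mice was hybridised to Illumina mouse bead arrays, with 3 arrays in each of 4 groups. The groups were smoke-exposed mice of 4 months, control mice of 4 months, smoke-exposed mice of 6 months and control mice of 6 months, all kept under specific pathogen-free conditions. The labels give no length or dose of exposure and no treatment of the controls, so age and length of exposure cannot be told apart in the smoke-exposed mice. The samples are called biological replicates, and the series set out to relate smoke-induced lymphoid tissue of the lung to macrophage activation in a model of chronic obstructive pulmonary disease.

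The proteasome is the protease that degrades ubiquitin-tagged proteins in the cytosol and nucleus. Its 20S core is a barrel of outer alpha rings, which gate entry, and inner beta rings, which hold the catalytic sites of Psmb5, Psmb6 and Psmb7. A 19S cap binds the tagged protein, removes the ubiquitin and threads the chain into the core by its ATPases. Immune cells, and other cells exposed to interferon gamma, build an immunoproteasome in which Psmb8, Psmb9 and Psmb10 take the places of Psmb5, Psmb6 and Psmb7. It cuts peptides suited to MHC class I molecules, and the PA28 activator made of Psme1 and Psme2 opens the same core. RNA levels do not measure assembled complexes or their activity.

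All values below are log2 intensities after background correction and quantile normalization, and changes are smoke minus control on that scale. Median raw intensities lay between 18 and 28 on the 12 arrays, and 55.1 to 57.6% of the probes were detected. The defining markers of lung were present: Sftpc, a surfactant gene of alveolar type 2 cells, lay at 14.11, 14.43 and 14.43 in smoke lungs of 4 months and at 14.16, 14.18 and 14.20 in control lungs of 4 months. Control replicates 1 and 2 of 4 months, smoke replicate 1 of 6 months and control replicate 3 of 6 months stood together on some genes, which was seen after the values were examined. These 4 arrays held the 4 highest values of Psmd13, Psmd4 and Psme3 and the 4 lowest of Psmb7 and Psme2, which is 5 of 43 proteasome genes or 11.6%, against 5.74% of all genes. They include smoke and control arrays and both ages, but control replicates 1 and 2 of 4 months and no smoke array of that age. They are thus spread unevenly over the smoke comparison at 4 months. The labels say nothing of these arrays, and their part in the results was not tested. The changes of these 5 genes at 4 months are also given without them. Leaving them out leaves 1 control array at 4 months, which is assumed to vary like the other groups, and 2 arrays in each group of 6 months. Since the arrays were picked after the values were seen, such a value is a description and not a check. The same holds for the share of 11.6%, which was counted on arrays picked from these values.

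The promoters of 5 genes are shown for the 2 kinds of catalytic subunit and for Psmc6, the gene that passed the test. Each is the RefSeq window on GRCm38.p6 of 250 bases before to 50 after the gene's start, read 5′ to 3′ along the gene. Psmb8 lies at chr17:34197945-34198244 on the plus strand, Psmb9 at chr17:34187281-34187580 on the minus strand, Psmb5 at chr14:54617946-54618245 on the minus strand, Psmb6 at chr11:70525107-70525406 on the plus strand and Psmc6 at chr14:45329574-45329873 on the plus strand. Capitals mark the matches described after the sequences.
Psmb8: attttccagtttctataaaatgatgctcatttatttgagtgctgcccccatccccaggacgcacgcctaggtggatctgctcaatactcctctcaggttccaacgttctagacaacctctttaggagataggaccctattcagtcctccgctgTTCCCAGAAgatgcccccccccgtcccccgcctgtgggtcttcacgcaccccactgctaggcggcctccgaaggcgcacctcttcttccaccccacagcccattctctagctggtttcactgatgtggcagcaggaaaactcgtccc
Psmb9: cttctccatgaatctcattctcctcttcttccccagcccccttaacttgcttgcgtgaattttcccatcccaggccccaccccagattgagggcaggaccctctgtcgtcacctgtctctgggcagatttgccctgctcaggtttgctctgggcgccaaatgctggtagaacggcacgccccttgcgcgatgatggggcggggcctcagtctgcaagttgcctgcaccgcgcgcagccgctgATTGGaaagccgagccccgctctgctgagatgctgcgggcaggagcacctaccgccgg
Psmb5: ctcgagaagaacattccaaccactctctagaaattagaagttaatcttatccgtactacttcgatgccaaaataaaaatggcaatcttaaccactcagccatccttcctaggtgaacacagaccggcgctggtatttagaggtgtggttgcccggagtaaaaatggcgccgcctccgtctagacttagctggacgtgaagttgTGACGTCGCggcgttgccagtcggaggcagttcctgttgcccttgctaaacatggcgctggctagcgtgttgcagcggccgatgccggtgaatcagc
Psmb6: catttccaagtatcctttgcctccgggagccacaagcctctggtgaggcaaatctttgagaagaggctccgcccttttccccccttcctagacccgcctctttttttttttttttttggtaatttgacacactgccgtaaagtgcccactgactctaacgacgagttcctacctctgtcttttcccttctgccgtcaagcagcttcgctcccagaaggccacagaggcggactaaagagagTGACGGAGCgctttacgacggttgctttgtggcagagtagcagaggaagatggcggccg
Psmc6: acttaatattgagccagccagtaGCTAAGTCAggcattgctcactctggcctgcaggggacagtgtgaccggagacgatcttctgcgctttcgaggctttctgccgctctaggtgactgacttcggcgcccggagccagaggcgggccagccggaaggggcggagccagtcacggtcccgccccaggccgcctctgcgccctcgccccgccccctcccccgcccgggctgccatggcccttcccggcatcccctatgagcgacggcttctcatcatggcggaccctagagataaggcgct

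A set of 4 motifs was searched on both strands in the windows of 27025 genes, 37 of them proteasome genes with a detected probe. The core of the antioxidant response element, TGACNNNGC, which NRF2 binds, was in the windows of 6 of these 37 genes or 16.2%, against 14.0% of all windows. Psmb5 held it as TGACGTCGC at position -47 from its start, Psmb6 as TGACGGAGC at -9, and Psmc6 on the other strand as GCTAAGTCA at -227. The interferon regulatory factor pattern GAAANNGAA was in 6 of 37 or 16.2%, against 9.76% of all windows. It was in none of the Psmb8, Psmb9 and Psmb10 windows, while Psme1 held it on the other strand as TTCGCTTTC at position 11. The STAT pattern TTCNNNGAA was in 3 of 37 or 8.11%, against 9.55% of all windows, with Psmb8 holding TTCCCAGAA at -97. The CCAAT box was in 13 of 37 or 35.1%, against 41.1% of all windows, with Psmb9 holding its reverse complement, ATTGG, at -8. Each window shown held 1 match, so that no matches overlapped in them. The Psmb10 window, which is not shown, held no match to any of the 4 motifs. These matches describe letters in the windows and no binding was measured. Psmb9, Tap1, Psmb8 and Tap2 are neighbours on chromosome 17, in that order, and the Psmb9 window shares 275 of its 300 bases with that of Tap1, which runs the other way. Tap1 and Tap2 form the transporter that carries peptides to class I molecules.

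Few proteasome genes passed the test for a difference between smoke and control lungs. Of the 43 genes, 0 passed at 4 months, where 1.65% of all genes did, and 1 passed at 6 months, where 5.08% of all genes did (limma, adjusted p below 0.05). In the mean of both ages 1 of the 43 passed, against 6.96% of all genes. The gene was Psmc6 in both cases, and it was lower in smoke lungs, as were 1.73% of all genes at 6 months and 2.67% in the mean of both ages. At an unadjusted p below 0.05, 4 proteasome genes or 9.30% stood at 4 months and 3 or 6.98% at 6 months, against 14.8% and 17.4% of all genes.

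The size of each change was bounded by its 95% interval. The median change of the 43 genes was 0.02 at 4 months and 0.01 at 6 months, against -0.03 and -0.02 for all genes. Single genes ran between -0.36 (Psmg3) and 0.64 (Psmb6) at 4 months and between -0.45 (Psmc6) and 0.29 (Psmb8) at 6 months. The whole 95% interval lay within a 2-fold change for 42 of the 43 genes at 4 months and for 43 at 6 months. It lay within a 1.5-fold change for 33 genes or 76.7% at 4 months and 39 or 90.7% at 6 months, against 71.5% and 71.4% of all genes. The exception to the 2-fold limit at 4 months was Psmb6. In these bulk samples, fewer cells of a type and less RNA per cell cannot be told apart.

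**Figure D1:**
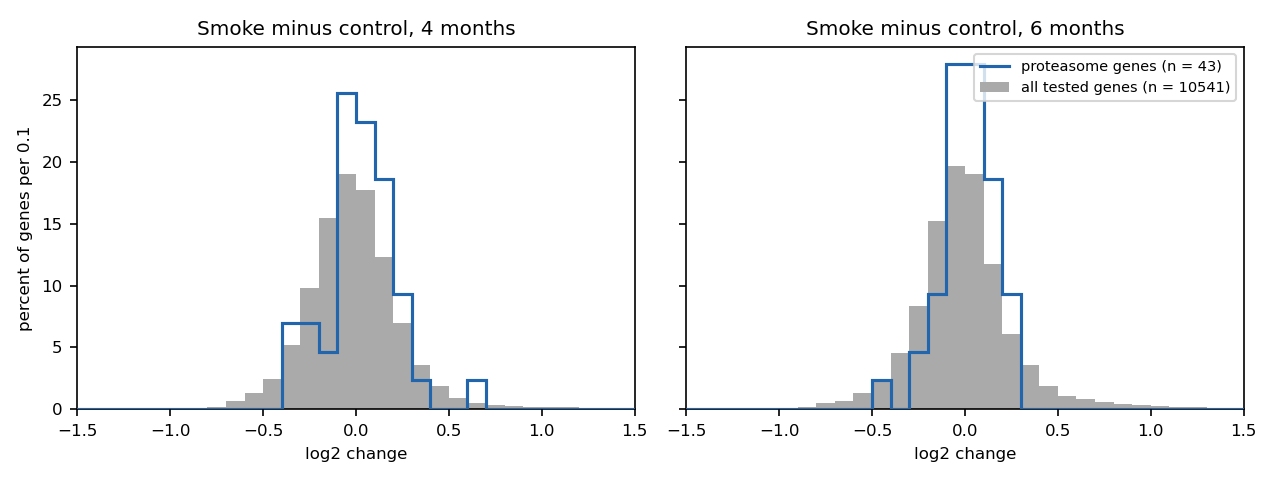
Histograms of the log2 change (smoke minus control, x axis, 0.1 per bin) at 4 months (left) and 6 months (right), as the percent of genes in each bin, for the 43 proteasome genes (blue line) and all 10541 tested genes (grey). The axis ends at 1.5 on either side, and some of the other genes lie beyond it. The proteasome genes lie between -0.36 and 0.64 at 4 months and between -0.45 and 0.29 at 6 months.

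**Figure D2:**
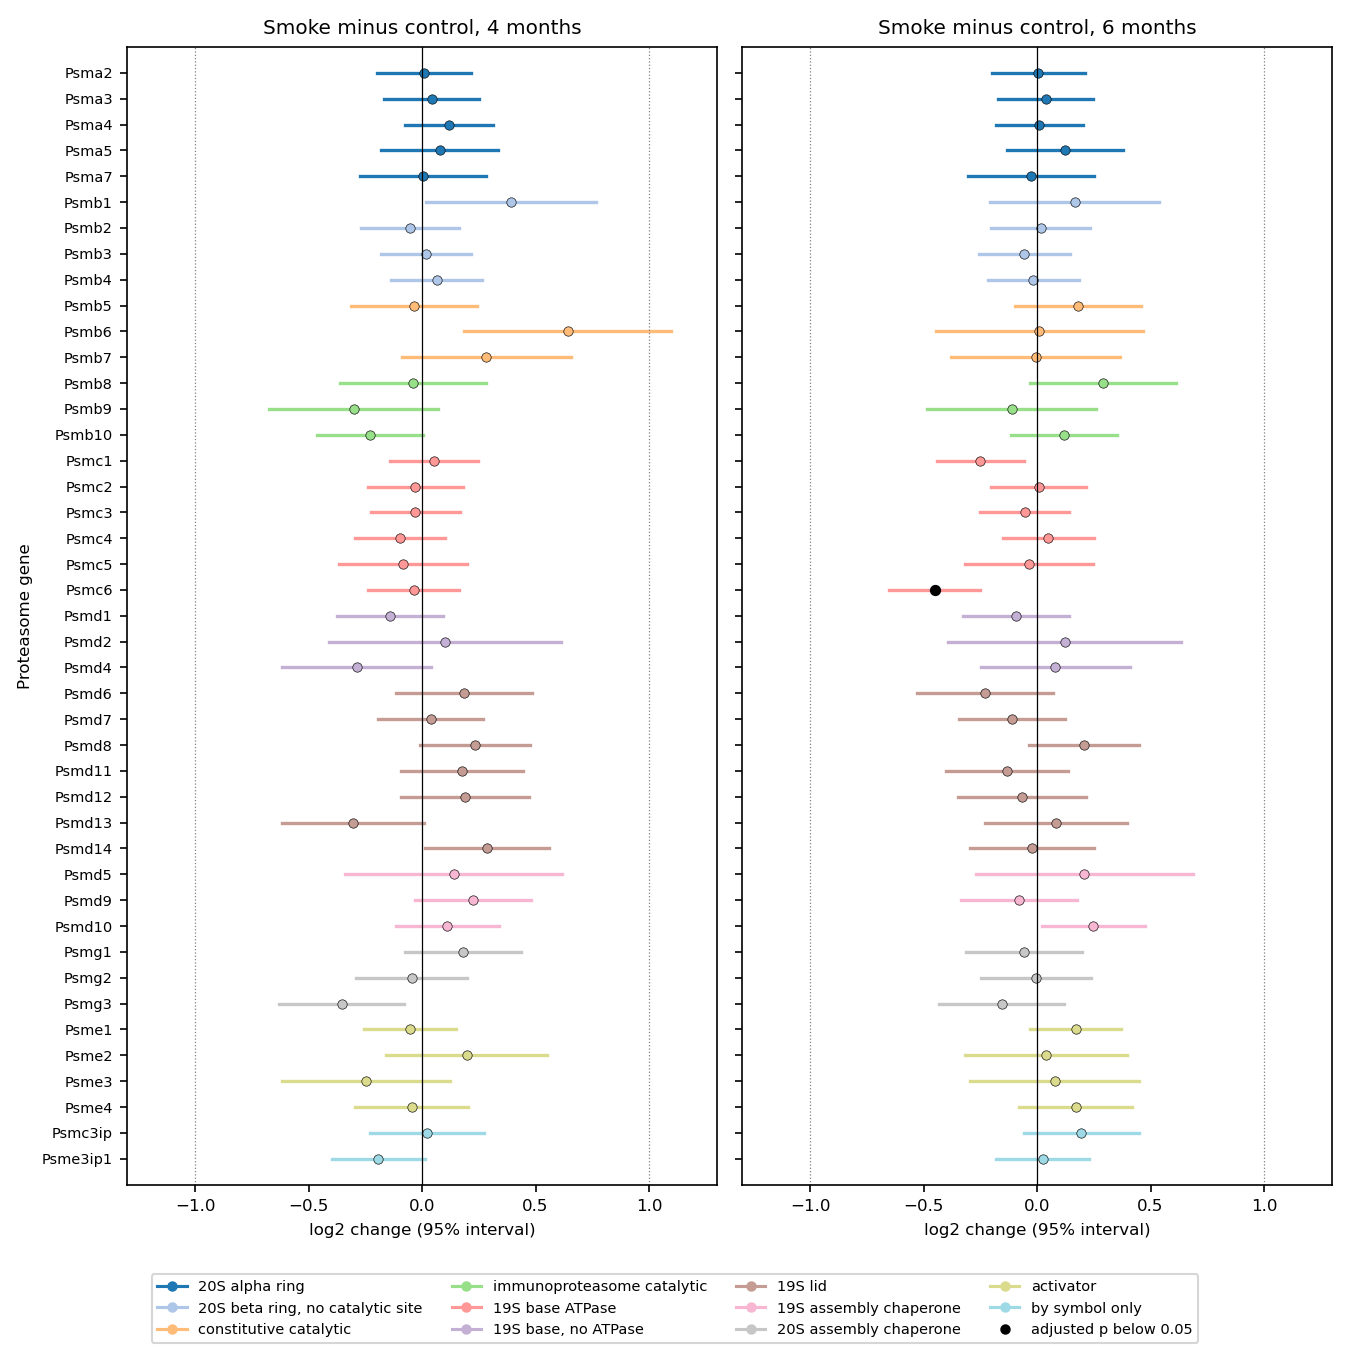
Log2 change of each proteasome gene (smoke minus control, x axis) with its 95% interval from limma, at 4 months (left) and 6 months (right), coloured by role. Dotted lines mark a 2-fold change. Psmc6 at 6 months, in black, was the gene with an adjusted p below 0.05.

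The catalytic subunits of the immunoproteasome did not pass the test in either direction at either age. Psmb8, its chymotrypsin-like subunit, read 7.72, 7.88 and 7.69 in smoke lungs of 4 months, against 7.92, 7.46 and 8.04 in control lungs, and the groups overlapped. At 6 months Psmb8 read 7.90, 8.04 and 8.22 in smoke lungs, against 7.88, 7.74 and 7.67 in control lungs. There the 3 smoke arrays all lay above the 3 control arrays, by 0.29 on average (95% interval -0.03 to 0.61, adjusted p = 0.358). At 4 months the change was -0.04 (-0.36 to 0.28, adjusted p = 0.926), and it was -0.27 without the 4 arrays that stood together. Control replicate 2 of 4 months, with the lowest Psmb8 value, also had the lowest mean level of 3 pan-leukocyte markers, 9.54, against 9.74 to 10.43 on the other arrays. Of these markers, Cd52 was lowest on that array, at 11.24. Ptprc was lower on control replicate 3 of 6 months, and Coro1a on smoke replicate 2 of 4 months and control replicate 2 of 6 months. Smoke replicate 2 of 4 months had the next lowest mean, 9.74, and a Psmb8 value of 7.88. The part of leukocyte content in the Psmb8 values was not tested.

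Psmb9, the subunit that replaces Psmb6 in the immunoproteasome, read 10.34, 10.33 and 10.40 in smoke lungs of 4 months, against 10.81, 10.56 and 10.60 in control lungs. Every smoke array lay below every control array, and the change was -0.30 (-0.68 to 0.07, adjusted p = 0.450). At 6 months it read 9.80, 10.50 and 10.53 in smoke lungs, against 10.56, 10.28 and 10.31 in control lungs, where smoke replicate 1 was low and the other arrays overlapped. The change there was -0.11 (adjusted p = 0.825), and 0.13 without smoke replicate 1, so a single array sets its sign.

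Psmb10, which replaces Psmb7 and carries the trypsin-like site, read 10.66, 10.82 and 10.85 in smoke lungs of 4 months, against 10.93, 11.07 and 11.03 in control lungs. These groups did not overlap, and the change was -0.23 (-0.47 to 0.00, adjusted p = 0.357). At 6 months it read 11.21, 10.90 and 11.07 in smoke lungs, against 11.02, 10.93 and 10.88 in control lungs, and the groups overlapped. The change at 6 months was 0.12 (-0.12 to 0.35, adjusted p = 0.671). A second Psmb10 probe gave -0.23 at 4 months and 0.16 at 6 months, close to the brighter one.

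The constitutive catalytic subunits did not pass the test either. Psmb6, which carries the caspase-like site, read 11.06, 11.14 and 11.24 in smoke lungs of 4 months, against 9.84, 10.81 and 10.86 in control lungs. Smoke arrays all lay above control arrays, by 0.64 on average (0.18 to 1.10, adjusted p = 0.200). Control replicate 1 was far below the others, and without it the change was 0.31. Without the 4 arrays that stood together it was 0.28. At 6 months Psmb6 read 10.97, 11.16 and 11.19 in smoke lungs, against 11.04, 11.10 and 11.15 in control lungs, a change of 0.01 (adjusted p = 0.990).

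Psmb5, the chymotrypsin-like subunit of the standard core, read 9.21, 9.16 and 8.69 in smoke lungs of 4 months, against 9.01, 9.15 and 9.01 in control lungs. Its groups overlapped and the change was -0.04 (-0.31 to 0.24), or 0.13 without smoke replicate 3, the lowest array. At 6 months it read 9.19, 9.22 and 9.15 in smoke lungs, against 9.03, 8.99 and 9.01 in control lungs. These groups did not overlap, and the change was 0.18 (-0.10 to 0.46, adjusted p = 0.544).

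Psmb7, the trypsin-like subunit of the standard core, read 10.71, 10.77 and 10.56 in smoke lungs of 4 months, against 10.28, 10.14 and 10.78 in control lungs. At the later age it read 10.20, 10.71 and 10.57 in smoke lungs, against 10.53, 10.63 and 10.34 in control lungs, and the groups overlapped at both ages. Its change was 0.28 at 4 months (-0.09 to 0.66, adjusted p = 0.478) and -0.01 at 6 months (-0.38 to 0.37, adjusted p = 0.993). The 4 arrays that stood together held its 4 lowest values, and without them the change at 4 months was -0.10. Dimmer Psmb7 probes gave 0.38 and 0.26 at 4 months and -0.02 and 0.20 at 6 months, with all arrays kept. RefSeq lists pseudogenes of Psma5, Psmb5, Psmb6 and Psmb7 and a second coding gene, Psme2b, beside Psme2. Whether their transcripts reach the same probes was not examined, so these levels are uncertain to that extent.

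**Figure D3:**
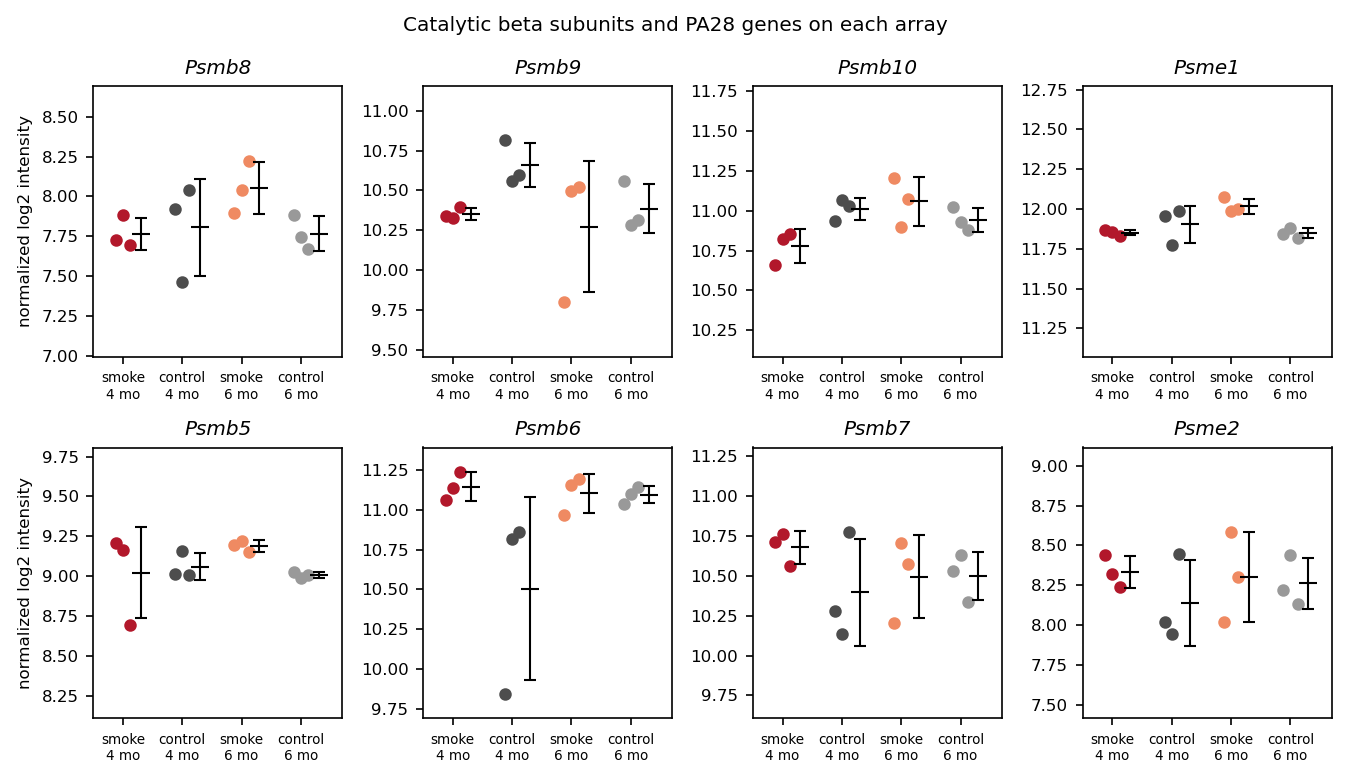
Normalized log2 intensity (y axis, the same span of 1.7 in every panel) of the immunoproteasome subunits, their constitutive counterparts and the PA28 genes on each of the 12 arrays, by group. Points are arrays, and the bars give mean ± SD (n = 3). Single low arrays stand out for Psmb6 in control lungs of 4 months and for Psmb9 in smoke lungs of 6 months.

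The balance between both kinds of catalytic subunit was described as the mean of Psmb8, Psmb9 and Psmb10 minus the mean of Psmb5, Psmb6 and Psmb7 on each array, relative to the mean of all 12 arrays. It read -0.31, -0.23 and -0.07 in smoke lungs of 4 months, against 0.62, 0.11 and 0.12 in control lungs. The groups did not overlap, and the smoke mean was lower by 0.49 (difference -0.49). At the later age it read -0.04, -0.10 and 0.08 in smoke lungs, against 0.07, -0.14 and -0.10 in control lungs, which overlapped and differed by 0.04. The value at 4 months ranged between -0.58 and -0.32 over the alternatives, and -0.32 came both from leaving out control replicate 1, the array with low Psmb6, and from leaving out the 4 arrays that stood together. By pair, the differences at 4 months were 0.00 for Psmb8 and Psmb5, -0.94 for Psmb9 and Psmb6, and -0.52 for Psmb10 and Psmb7. At 6 months they were 0.11, -0.12 and 0.12 in the same order. Since the score was built from chosen members, no test was made of it, and none of its 6 genes passed the test on its own.

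PA28 and the other activators did not pass the test. Psme1, the alpha subunit of PA28, read 11.87, 11.86 and 11.83 in smoke lungs of 4 months, against 11.95, 11.77 and 11.99 in control lungs, and the groups overlapped. At the later age it read 12.07, 11.98 and 11.998 in smoke lungs, against 11.85, 11.88 and 11.82 in control lungs. Smoke arrays of 6 months all lay above the control arrays, by 0.17 (-0.03 to 0.37, adjusted p = 0.404), and the change at 4 months was -0.05 (adjusted p = 0.829). A dimmer Psme1 probe went the other way at 4 months, with 0.28.

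Psme2, the beta subunit of PA28, read 8.44, 8.32 and 8.24 in smoke lungs of 4 months, against 8.02, 7.94 and 8.45 in control lungs. At the later age it read 8.02, 8.58 and 8.30 in smoke lungs, against 8.22, 8.44 and 8.13 in control lungs, so that the groups overlapped at both ages. The changes were 0.20 at 4 months (adjusted p = 0.612) and 0.04 at 6 months (adjusted p = 0.947). At 4 months the value was -0.11 without the 4 arrays that stood together. Psme3, the nuclear PA28 gamma, and Psme4, the PA200 activator, had changes of -0.25 and -0.05 at 4 months and of 0.08 and 0.17 at 6 months, with adjusted p between 0.528 and 0.892 at 6 months. Psme3 read 9.35, 9.43 and 9.51 in smoke lungs of 4 months, against 9.79, 9.86 and 9.39 in control lungs, and the change there was 0.04 without the 4 arrays.

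The rest of the 20S core did not pass the test at either age. All 5 detected alpha ring genes, Psma2, Psma3, Psma4, Psma5 and Psma7, had changes between 0.00 and 0.12 at 4 months and between -0.03 and 0.12 at 6 months. Their 95% intervals together ran between -0.27 and 0.33 at 4 months and between -0.31 and 0.38 at 6 months. Among the beta subunits without a catalytic site, Psmb2, Psmb3 and Psmb4 lay between -0.05 and 0.06 at 4 months and between -0.06 and 0.02 at 6 months. A dimmer Psmb2 probe gave 0.22 at 4 months and -0.03 at 6 months. Psmb1 lay outside the range given for Psmb2, Psmb3 and Psmb4. It read 9.88, 10.07 and 9.87 in smoke lungs of 4 months, against 9.89, 9.61 and 9.15 in control lungs. Its groups overlapped through control replicate 1, and the change was 0.39 (0.02 to 0.77, adjusted p = 0.333). Without the 4 arrays that stood together it was 0.79, against the single control array left at that age.

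The 19S base held the only gene that passed. Psmc6 encodes one of the ATPases of the ring, and it read 4.75, 4.90 and 4.79 in smoke lungs of 6 months, against 5.26, 5.27 and 5.28 in control lungs. The groups were apart, and Psmc6 fell by 0.45 on the log2 scale in smoke lungs (-0.65 to -0.25, adjusted p = 0.0145). At 4 months it read 4.75, 4.79 and 4.91 in smoke lungs, against 4.78, 4.90 and 4.88 in control lungs, with a change of -0.04 (adjusted p = 0.886). In the mean of both ages the change was -0.25 (adjusted p = 0.0448). That call was lost under 19 of the 22 alternatives that tested it, each single array left out among them, with an adjusted p of 0.0533 to 0.168 where lost. The other 3 groups had means between 4.82 and 4.85, and the control lungs of 6 months a mean of 5.27 ± 0.01 (SD, n = 3). This probe lies at the edge of detection, with 1 of 3 arrays detected in smoke lungs of 6 months and 3 of 3 in control lungs of 6 months, and 1 of 3 in each group of 4 months. The adjusted p at 6 months missed the threshold without smoke replicate 3, with a larger offset, when only the 6 arrays of that age were fitted, and without the 4 arrays that stood together. The adjusted p was 0.0667 to 0.0831 in these cases. With the larger offset, 50, the change was -0.22. Since 2 of the 3 smoke values of 6 months were not above background, the size of the change is uncertain.

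The other 5 ATPases did not pass. Psmc1 read 9.76, 9.69 and 9.59 in smoke lungs of 6 months, against 9.89, 9.93 and 9.97 in control lungs. Its groups did not overlap, and the change was -0.25 (-0.44 to -0.06, adjusted p = 0.155), against 0.05 at 4 months. At that age it read 9.67, 9.75 and 9.74 in smoke lungs, against 9.66, 9.68 and 9.67 in control lungs, and the groups overlapped. Psmc2, Psmc3, Psmc4 and Psmc5 lay between -0.10 and -0.03 at 4 months and between -0.05 and 0.05 at 6 months. A dimmer Psmc5 probe gave 0.08 at 4 months and -0.09 at 6 months. Psmd1 and Psmd2, the scaffold subunits of the base, had changes of -0.14 and 0.10 at 4 months and of -0.09 and 0.12 at 6 months. Psmd4, a ubiquitin receptor, had changes of -0.29 at 4 months and 0.08 at 6 months (adjusted p = 0.411 and 0.865). It read 11.65, 11.72 and 11.71 in smoke lungs of 4 months, against 12.04, 12.26 and 11.65 in control lungs, and the change there was 0.05 without the 4 arrays.

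In the 19S lid, which holds the deubiquitinase Psmd14, 0 of 7 genes passed at either age. Psmd14 read 8.68, 8.48 and 8.70 in smoke lungs of 4 months, against 8.12, 8.30 and 8.59 in control lungs. Its groups overlapped, with a change of 0.28 (adjusted p = 0.334), or 0.03 without the 4 arrays that stood together. Psmd13, a structural lid subunit, read 11.12, 11.26 and 11.16 in smoke lungs of 4 months, against 11.52, 11.74 and 11.18 in control lungs. Its change of -0.30 (adjusted p = 0.367) was 0.00 without those 4 arrays. At 6 months Psmd13 read 11.55, 11.19 and 11.20 in smoke lungs, against 11.23, 11.17 and 11.29 in control lungs. Psmd14 read 8.74, 8.81 and 8.63 in smoke lungs of that age, against 8.78, 8.67 and 8.79 in control lungs. Both genes had overlapping groups there, with changes of 0.08 for Psmd13 and -0.02 for Psmd14.

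Psmd6, another lid subunit, read 6.13, 6.05 and 6.04 in smoke lungs of 6 months, against 6.44, 6.22 and 6.26 in control lungs. Smoke arrays all lay below control arrays, with a change of -0.23 (-0.53 to 0.07, adjusted p = 0.462). At 4 months Psmd6 read 6.01, 5.93 and 5.95 in smoke lungs, against 5.42, 6.004 and 5.91 in control lungs, and the groups overlapped, with control replicate 1 the lowest array. Psmd7, Psmd8, Psmd11 and Psmd12 lay between 0.04 and 0.23 at 4 months and between -0.13 and 0.21 at 6 months. Dimmer probes of Psmd7, Psmd11 and Psmd12 gave 0.29, 0.18 and 0.52 at 4 months and -0.17, 0.05 and -0.02 at 6 months. Psmd8 had changes of 0.23 and 0.21 and did not pass in their mean (adjusted p = 0.128).

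None of the 6 assembly chaperones tested passed at either age (limma). Psmg3, a chaperone that helps to build the alpha ring, read 7.55, 7.58 and 7.60 in smoke lungs of 4 months, against 8.06, 7.98 and 7.76 in control lungs. Every smoke array lay below every control array, with a change of -0.36 (-0.63 to -0.08, adjusted p = 0.235), and the change was -0.18 without the 4 arrays that stood together. At 6 months it read 8.11, 7.81 and 7.83 in smoke lungs, against 7.86, 8.12 and 8.23 in control lungs, which overlapped, with a change of -0.16. Psmg1 and Psmg2, partners in the same step, had changes of 0.18 and -0.05 at 4 months and of -0.06 and -0.01 at 6 months.

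Psmd5, Psmd9 and Psmd10 are chaperones of the 19S base. Psmd10, also known as gankyrin, read 9.89, 9.77 and 9.62 in smoke lungs of 6 months, against 9.40, 9.57 and 9.57 in control lungs. These groups did not overlap, with a change of 0.25 (0.02 to 0.47, adjusted p = 0.244). Dimmer Psmd10 probes gave smaller changes at 6 months, of 0.08 and 0.13. Psmd5 read 7.13, 7.34 and 7.28 in smoke lungs of 6 months, against 6.89, 7.29 and 6.95 in control lungs, which overlapped, with a change of 0.21 (adjusted p = 0.723). At 4 months Psmd10 read 9.51, 9.50 and 9.58 in smoke lungs, against 9.36, 9.52 and 9.37 in control lungs. Psmd5 read 6.82, 7.16 and 6.70 in smoke lungs of that age, against 6.58, 6.34 and 7.35 in control lungs. Both had overlapping groups there, with changes of 0.11 for Psmd10 and 0.14 for Psmd5. Without the 4 arrays that stood together these were 0.15 and -0.45, against the single control array left at that age. Psmd9 had changes of 0.22 at 4 months and -0.08 at 6 months. Psmc3ip, which acts in meiotic recombination, and Psme3ip1, a partner of Psme3, are in the set by symbol alone, and they lay between -0.19 and 0.20.

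Complete separation of smoke and control arrays was counted for every gene. At 4 months no smoke array overlapped the range of the 3 control arrays for 8 of 43 genes, 3 of them higher and 5 lower throughout, where 21.4% of all genes did so, a share near that of the array as a whole. At 6 months this held for 8 of 43 genes, 5 higher and 3 lower, against 21.7% of all genes. The spread between arrays of a group was small, with a median SD of 0.13 for the proteasome genes and 0.17 for all genes. Among genes of a like level, the medians were 0.14 for 21 proteasome genes and 0.14 for 3598 genes in all. Psma4 had the smallest SD, 0.05, and Psmd2 the largest, 0.34.

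**Figure D4:**
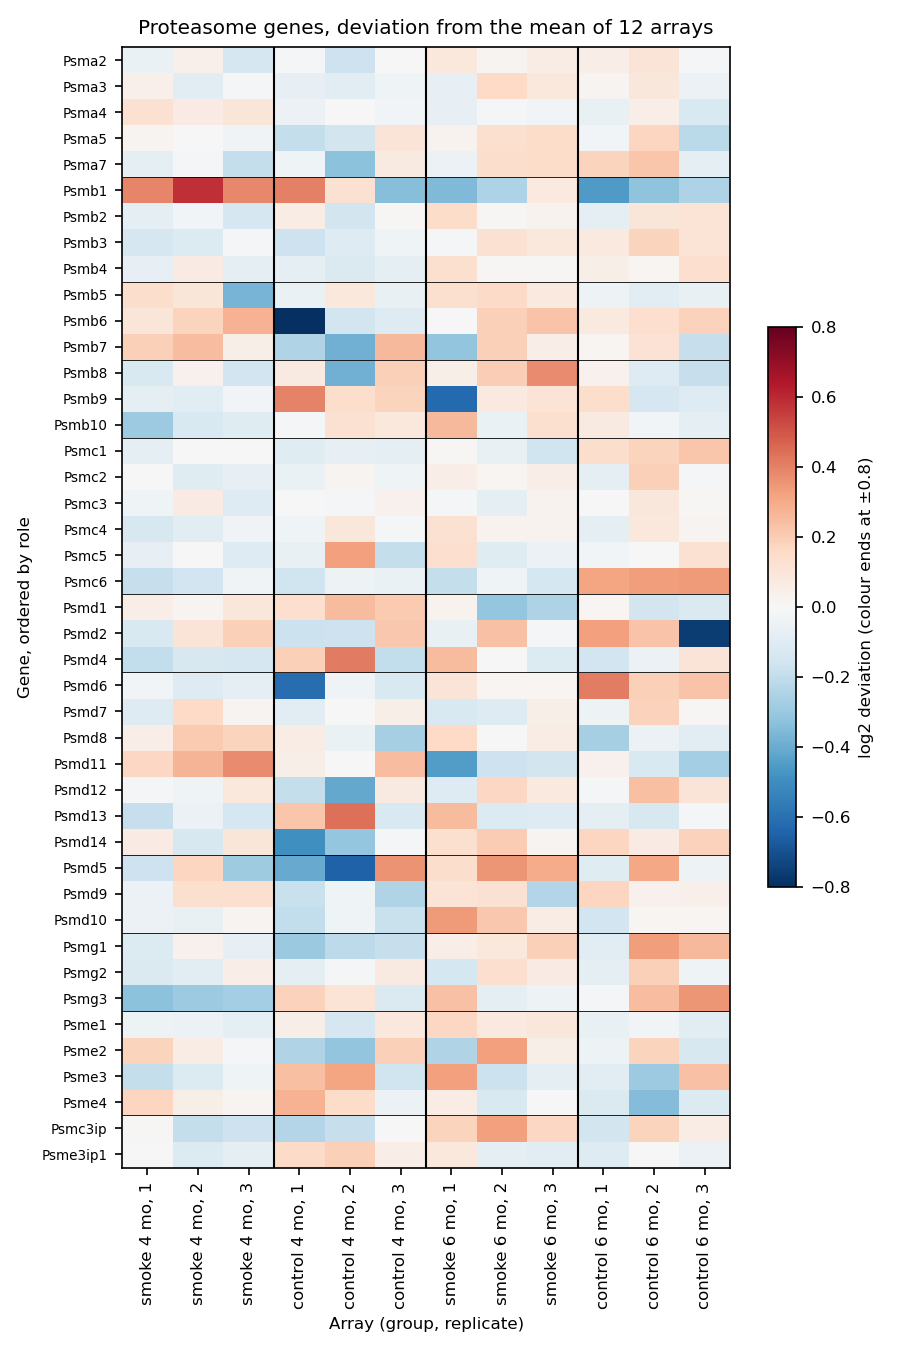
Deviation of each proteasome gene from its mean over the 12 arrays (log2, colour, ending at 0.8 on either side), with genes ordered by role (thin lines) and arrays by group (thick lines). Psmc6 is high in the 3 control arrays of 6 months, and single dark cells mark Psmb6 in control replicate 1 of 4 months, Psmb9 in smoke replicate 1 of 6 months and Psmd2 in control replicate 3 of 6 months.

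The smoke effect was next compared between the ages, as the change at 6 months minus that at 4 months. Of the 43 proteasome genes 0 passed (limma), as did 0% of all genes, and 3 stood at an unadjusted p below 0.05, namely Psmc6, Psmc1 and Psmb10, named here after their values were seen. Their differences were -0.41 for Psmc6, -0.30 for Psmc1 and 0.35 for Psmb10, with adjusted p of 0.489, 0.579 and 0.591. For Psmb8 and Psmb9 the differences were 0.33 (-0.12 to 0.78) and 0.19 (-0.34 to 0.72), so a change in the smoke effect of up to 0.78 on the log2 scale lies within the interval of Psmb8.

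Between 6 and 4 months within one exposure, 0 of 43 proteasome genes passed in smoke lungs, where 0.019% of all genes did, and 0 passed in control lungs, where 0.0569% did. At an unadjusted p below 0.05, 6 genes or 14.0% stood in smoke lungs and 11 or 25.6% in control lungs, against 10.8% and 17.8% of all genes. The smallest adjusted p in smoke lungs was that of Psmd11, with 7.58, 7.86 and 7.88 at 6 months, against 8.19, 8.30 and 8.41 at 4 months, a change of -0.53 (adjusted p = 0.209). Psmb1 had changes of -0.63 in smoke lungs and -0.40 in control lungs (adjusted p = 0.245 and 0.251), with values of 9.14, 9.24 and 9.56 in smoke lungs of 6 months and 9.04, 9.16 and 9.24 in control lungs of 6 months. In control lungs Psmc6 had the smallest adjusted p, 0.0926, with a change of 0.41. Without control replicate 3 of 4 months, 4 genes passed there, namely Psmb1, Psmc6, Psmd14 and Psmd6. The share of all genes that passed without that array was not computed, so this count has nothing to be set against.

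Genes that work with the proteasome or respond to the same signals were set beside it, from lists chosen with earlier results known. Of 16 partners of the proteasome, 10 were tested and 0 passed at either age, among them the assembly factor Pomp (-0.06 at 4 months and 0.06 at 6 months), the deubiquitinase Usp14 (0.29 and 0.14) and Nfe2l1, the transcription factor that induces proteasome genes when the proteasome is blocked (-0.05 and -0.07). None of 4 ubiquitin genes was tested. Of 12 genes of class I antigen presentation, 11 were tested and 0 passed at either age.

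Tap1 read 7.24, 7.37 and 7.61 in smoke lungs of 4 months, against 8.26, 8.21 and 7.67 in control lungs, a change of -0.64 (adjusted p = 0.141). Tap2 read 10.01, 10.03 and 10.09 in smoke lungs of 4 months, against 10.51, 10.60 and 10.13 in control lungs, a change of -0.37 (adjusted p = 0.230). Both had groups that did not overlap at 4 months, with smoke lungs lower as for their neighbour Psmb9. Psmb8, which lies between Tap1 and Tap2, changed by -0.04 at 4 months with overlapping groups. The highest Tap1 and Tap2 values of that age were those of control replicates 1 and 2, which are among the 4 arrays that stood together. At 6 months Tap1 and Tap2 had changes of 0.13 and 0.08. Nlrc5, the transactivator of class I genes, had changes of -0.44 at 4 months and 0.15 at 6 months (adjusted p = 0.233 and 0.705). Other genes of the list were higher at 4 months, among them Calr (0.66), H2-D1 (0.54), Tapbp (0.37) and Pdia3 (0.25), while Tapbpl was lower (-0.20). The mean level of the 11 genes tested was 9.11 in smoke lungs of 4 months, against 9.07 in control lungs.

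Of 24 interferon response genes, 20 were tested, and 1 was lower at 4 months and 3 were higher at 6 months. At the same threshold, 39 of all 10541 genes were lower at 4 months and 353 of 10541 were higher at 6 months. Oas2, an antiviral sensor, fell by 1.00 on the log2 scale at 4 months (adjusted p = 0.00919). The chemokines Cxcl9 and Cxcl10 rose by 2.45 and 1.80 at 6 months (adjusted p = 0.00903 and 0.000444), and Ifit3, an antiviral gene, rose by 0.64 (adjusted p = 0.00414). Cxcl9 read 8.87, 8.86 and 9.29 in smoke lungs of 6 months, against 5.65, 7.47 and 6.55 in control lungs, while Psmb8 in the same arrays differed by 0.29. The median change of the 20 genes was -0.23 at 4 months and 0.01 at 6 months, against -0.03 and -0.02 for all genes. The mean level of the list read 8.27, 8.17 and 8.22 in smoke lungs of 4 months, against 8.51, 8.39 and 8.54 in control lungs, and 8.60, 8.48 and 8.47 in smoke lungs of 6 months, against 8.28, 8.30 and 8.14 in control lungs.

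**Figure D5:**
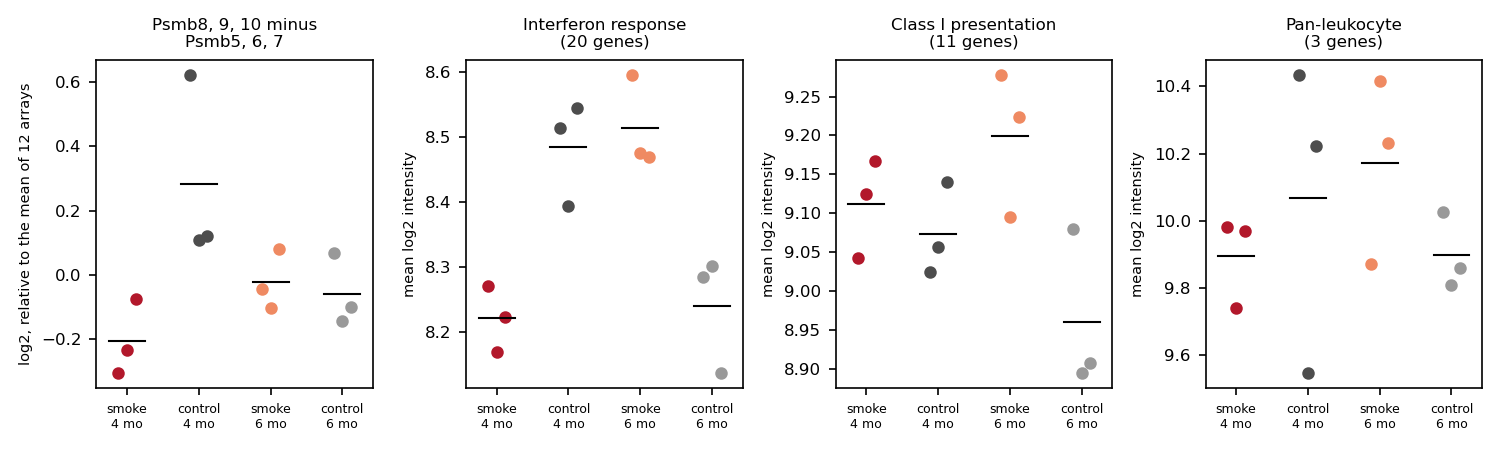
From left to right, the mean of Psmb8, Psmb9 and Psmb10 minus that of Psmb5, Psmb6 and Psmb7 (log2, relative to the mean of 12 arrays), and the mean log2 intensity of 20 interferon response genes, 11 class I presentation genes and 3 pan-leukocyte markers, by group. Points are arrays and lines are group means (n = 3), and the y axes differ between panels. Smoke arrays of 4 months lie below control arrays of 4 months in the first and second panels.

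Markers of other cell types in the lung were examined in the same arrays. All 6 macrophage markers rose at both ages, with 3.39 at 4 months and 3.36 at 6 months for Gpnmb (adjusted p = 2.97e-06 and 1.87e-06). Their mean level was 9.37, 9.49 and 9.71 in smoke lungs of 4 months, against 7.87, 7.67 and 7.80 in control lungs, and 9.36, 9.53 and 9.44 in smoke lungs of 6 months, against 7.61, 7.77 and 7.66 in control lungs. Of 4 NK cell markers 2 were tested, and both were lower at 4 months and 1 at 6 months. Over all 10541 genes, 135 passed as higher and 39 as lower at 4 months, and 353 and 182 at 6 months. Klrd1 changed by -0.61 and -0.69 (adjusted p = 0.0235 and 0.00563). None of 5 T cell, 3 B cell, 3 pan-leukocyte, 3 neutrophil and 2 dendritic cell markers tested passed at either age (limma). The mean level of the T cell markers was 7.998, 7.76 and 8.18 in smoke lungs of 4 months, against 8.75, 7.37 and 8.38 in control lungs, with control replicate 2 lowest of all 12 arrays. Among the markers of lung epithelium, endothelium, thymus, heart muscle, fat and blood that were tested, Alas2, a gene of red cell precursors, was lower at 4 months (-1.16, adjusted p = 0.0281), and none of the others passed at either age. The part of these shifts in the values of Psmb8, Psmb9 and Psmb10 was not tested.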

How the data were processed

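RNA of 12 mouse lungs was read on Illumina bead arrays after labelling with biotin, per the labels' protocols. Per the file headers, the authors deposited a raw intensity and a detection p-value for each probe and array. The intensity runs below 0, so a background had been subtracted before deposit. Neither the software nor the method of that step is named in the sources used here. A second table that the authors deposited holds intensity normalized between arrays by an unstated method and was used as an alternative. Both tables held 25697 probes, of which 1719 are unnamed here and 0 had several symbols. Symbols were updated by gene identifier through a RefSeq table (GRCm38.p6).

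Background was removed from the raw intensity with limma's normal-exponential model, which took the negative controls from the detection p-values. An offset of 16 was added before quantile normalization and the log2 transform. The offset understates changes of dim probes. Probes with detection p below 0.05 on at least 3 arrays were kept (15490), and the brightest probe stood for a gene. A model with a mean for each group used all 12 arrays, in limma 3.58.1 and R 4.3.3 (lmFit and eBayes, 8 residual and 4.54 prior degrees of freedom). Tests were two-sided, with Benjamini-Hochberg adjustment over the 15490 probes. The number of arrays limits the precision. The method was tested on simulated data.

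The members, their roles and the other lists were chosen with earlier results of these data known. Values on every array are given for Psmb5 to Psmb10, Psme1, Psme2, every member that passed, and the 3 highest and 3 lowest changes at each age. Other genes were named after their values were seen. In the main model, replicate numbers were not used to pair the arrays. The correlation of deviations between arrays of the same number lay between -0.39 and 0.25 and was over 0.1 in 1 of 18 pairs. These values were not set against pairs of different numbers, so they do not decide whether the numbers pair the arrays. No 2 arrays held identical values.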

Additional observations from a re-analysis of the deposited data

Results flagged for a closer look

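The mean level of the 20 interferon response genes drew attention because smoke and control arrays were fully separated in opposite directions at the 2 ages. It was lower by 0.26 in smoke lungs of 4 months (change -0.26) and higher by 0.27 in smoke lungs of 6 months, and these changes differ by 0.54 on the log2 scale. Cxcl9, Cxcl10 and Ifit3 had the 3 changes that passed at 6 months, of 2.45, 1.80 and 0.64, while the median change of the 20 genes was 0.01 there and -0.23 at 4 months. Most of the higher mean at 6 months thus came from these 3 genes. The difference of the mean level was not tested. For single genes of the list the difference between the ages was tested, and 0 of 20 passed (limma). No proteasome gene showed such opposite separation among the 66 genes, list levels and subunit differences that were searched. Full separation in either direction was seen for 21.4% of all genes at 4 months and 21.7% at 6 months. The share of all genes separated in opposite directions was not computed, so this result cannot be set against the array as a whole.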

How the results depend on the processing

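Each result was computed again under 24 alternatives, or 23 for the calls and the median in the mean of both ages and for the calls on the difference between ages, where fitting only the arrays of the comparison was not run. The balance of the catalytic subunits is an unweighted mean of fixed probes, so some alternatives leave it unchanged by construction. Array weights, the replicate block, only the arrays of the comparison, detection on all 12 arrays and no detection filter cannot alter it. The counts below are of proteasome genes only. The share of all genes that passed was not computed under the alternatives, so these counts cannot be set against the array as a whole. With array weights, 2 proteasome genes passed at 4 months (Psmb6 and Psmg3), 3 in the mean of both ages, 2 between 6 and 4 months in control lungs and 1 in smoke lungs (Psmd11). At 6 months the count was 0 with an offset of 50, with only the arrays of the comparison, without the 4 arrays that stood together (an alternative chosen after seeing the data), and where detection on all 12 arrays was required, which leaves Psmc6 untested. In the mean of both ages it was 0 without further background correction, with an offset of 50, scaling to equal medians, cyclic loess, the authors' deposited values, detection on all 12 arrays and the replicate block. Without the 4 arrays 1 gene passed there, Psmb1 in place of Psmc6, with 1 control array left at 4 months that is assumed to vary like the other groups. Leaving out single arrays gave counts of 0 to 1 at 6 months, 0 in the mean of both ages and 0 to 4 between ages in control lungs. The median change was -0.050 at 4 months and -0.021 in the mean of both ages without the 4 arrays, and -0.045 at 6 months with equal medians. Over single arrays left out it ran between -0.0068 and 0.056 at 4 months and between -0.00025 and 0.052 at 6 months. With the replicate block the count at 6 months was 1, and it changed no call at either age. The bead chip as a block was not run, because the headers give no chip. Signal over background limits Psmc6, and genes near detection in general.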
